A study of Mus musculus with 10 samples.

Results

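The loops described here joined promoters to promoters in mouse bone marrow-derived macrophages (MFs). They were taken from 5 lists of chromatin loops called from Hi-C, an assay that cuts and religates crosslinked chromatin and counts how often a pair of places in the genome was joined. Each list line gave 2 bins of 10 kb, the anchors, and the number of contacts between them. A loop was kept where it lay on an autosome, spanned 20 to 490 kb from anchor start to anchor start, and had in both anchors the transcription start site (TSS, here the 5′ end of the gene) of at least 1 protein-coding gene. Contacts played no part in that choice beyond the loop having been called. There were 5346 distinct loops of this kind, out of 123114 distinct autosomal loops of the same spans and 153264 distinct loops in the whole series.

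All cells came from wild type female C57BL/6 mice aged 2 to 3 months, whose marrow was grown with M-CSF at 20 ng/ml and treated on day 6. Controls were M0[CTR]. The group M2[IL-4] had 24 h of IL-4 at 20 ng/ml, and M2p[pIL-4] had the same IL-4 followed by washing and 24 h of rest. The group IFNG had 3 h of interferon gamma at 20 ng/ml, and pIL-4 + IFNG had IL-4, washing, rest and then the 3 h of IFNG. The labels gave 2 replicates for each of the 5 groups, 10 samples in all, but 1 list per group, so no value below has a replicate error and every comparison is one of lists, not of conditions. The number of mice behind a sample is not given in the sources used here. The cells were a bulk culture, in which a contact made in more cells and one made more often in each cell cannot be told apart. Where 5 values stand in a row below, they follow the order M0[CTR], M2[IL-4], M2p[pIL-4], IFNG, pIL-4 + IFNG.

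Promoters that lie near each other on a chromosome can meet in the nucleus, often where several active genes sit close together. Loops can also be held by CTCF, a DNA-binding protein that stops the cohesin ring as it draws a loop, mostly where the motifs at both ends point towards each other. IL-4 acts on macrophages through the transcription factor STAT6, and promoters of IFNG-responsive genes often carry a short sequence known as the GAS element. Irf1 encodes a transcription factor and the Gbp genes encode guanylate-binding GTPases, both classes known to be induced by IFNG. Cish encodes a cytokine-induced inhibitor of JAK-STAT signalling.

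The promoters of the genes on which the results below turn are shown first, from RefSeq on GRCm38, 250 bases before to 50 after the RefSeq start and read along the gene. Irf1 and Gbp2 lay in loops called in different lists with and without IFNG, and Cish and Hemk1 were the ends of one of the strongest loops of all 5 lists. Capitals mark matches to the GAS letters TTCNNNGAA and to the STAT6 letters TTCNNNNGAA, each of which reads alike on both strands. The windows lay at chr11:53769764-53770063 on the plus strand for Irf1, at chr3:142620413-142620712 on the plus strand for Gbp2, at chr9:107296409-107296708 on the plus strand for Cish and at chr9:107338301-107338600 on the minus strand for Hemk1.
Irf1: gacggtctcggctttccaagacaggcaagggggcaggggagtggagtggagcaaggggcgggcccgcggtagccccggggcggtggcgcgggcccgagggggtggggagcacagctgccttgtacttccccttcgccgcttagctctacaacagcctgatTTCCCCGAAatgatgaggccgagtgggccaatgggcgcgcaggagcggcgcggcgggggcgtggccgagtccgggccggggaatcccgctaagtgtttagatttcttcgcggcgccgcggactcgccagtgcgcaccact
Gbp2: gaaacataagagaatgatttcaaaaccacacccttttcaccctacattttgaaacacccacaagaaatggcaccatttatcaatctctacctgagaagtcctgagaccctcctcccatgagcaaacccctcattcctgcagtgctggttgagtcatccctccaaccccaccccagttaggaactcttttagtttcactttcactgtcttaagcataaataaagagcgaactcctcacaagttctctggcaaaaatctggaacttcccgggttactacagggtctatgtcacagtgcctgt
Cish: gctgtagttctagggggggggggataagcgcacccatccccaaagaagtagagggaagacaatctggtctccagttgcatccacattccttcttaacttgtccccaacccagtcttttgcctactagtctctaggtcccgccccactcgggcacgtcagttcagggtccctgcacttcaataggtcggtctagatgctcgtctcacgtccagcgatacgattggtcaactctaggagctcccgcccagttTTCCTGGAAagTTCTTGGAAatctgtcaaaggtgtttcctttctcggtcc
Hemk1: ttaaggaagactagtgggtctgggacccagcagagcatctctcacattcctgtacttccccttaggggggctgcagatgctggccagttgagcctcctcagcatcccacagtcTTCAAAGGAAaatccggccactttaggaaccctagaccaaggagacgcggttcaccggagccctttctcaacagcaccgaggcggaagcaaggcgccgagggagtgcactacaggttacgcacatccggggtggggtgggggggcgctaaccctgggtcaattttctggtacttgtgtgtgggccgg
The Irf1 window held 1 GAS match, the Cish window 2 GAS matches close to the start, the Hemk1 window 1 STAT6 match, and the Gbp2 window neither. Over windows of the same length at the gene 5′ ends of all 20807 autosomal protein-coding genes, 8.01% held the GAS letters and 6.44% the STAT6 letters. A match is a run of letters, not a bound site.

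The 2 longest lists held the most promoter to promoter loops. M0[CTR] held 2070 of them among 44658 autosomal loops of 20 to 490 kb (4.64%, 95% Wilson interval 4.44 to 4.83). M2[IL-4] held 2114 of 48374 (4.37%, 4.19 to 4.56), and M2p[pIL-4] 2680 of 57355 (4.67%, 4.50 to 4.85). IFNG held 2165 of 45777 (4.73%, 4.54 to 4.93), and pIL-4 + IFNG 2702 of 56271 (4.80%, 4.63 to 4.98). The share was lowest in M2[IL-4] and highest in pIL-4 + IFNG, and the intervals of these 2 lists did not overlap. These 2 lists were picked as the extremes, and the intervals count touching bin pairs as separate loops, which makes them too narrow. All intervals here cover counting error only. Against M0[CTR], the promoter to promoter loops were 29.5% more numerous in M2p[pIL-4] and 30.5% more numerous in pIL-4 + IFNG, where all loops were 28.4% and 26.0% more numerous. In M2[IL-4] they were 2.13% more numerous against 8.32% for all loops, and in IFNG 4.59% against 2.51%.

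These loops were shorter than others and held more contacts. Their median span was 90 kb in every list, against 120 to 130 kb for loops with a promoter at 1 end and 170 to 180 kb for loops without one. Their median was 44 to 46 contacts, against 38 and 31 for the other 2 kinds, with the lowest at 10 to 12 and the highest at 190 to 229. Contacts fall with span, so a loop's strength is given here as its contacts over the median of all loops of the same span in the same list. On that scale the median promoter to promoter loop was at 1.02 to 1.04, little above the others. Summed over each list, the promoter to promoter loops held 106213 to 135009 contacts.

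The question of how often a pair of promoters is called needs all possible pairs as its base. In M0[CTR], 591 of 14332 possible pairs of TSS bins 20 to 50 kb apart were called (4.12%, 3.81 to 4.46), against 1.80% (1.73 to 1.88) of pairs with 1 TSS bin and 0.385% (0.372 to 0.398) of pairs with none. Promoter pairs were thus called 10.7-fold as often as pairs without promoters at this span, and 9.50- to 10.9-fold over the 5 lists. The gap narrowed with span. At 210 to 490 kb, 0.353% of promoter pairs and 0.219% of pairs without promoters were called in M0[CTR], a ratio of 1.62.

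Much of that gap was shared by the bins next to promoters. Pairs of bins without a TSS, both touching a TSS bin, were called in 1.99% of cases (1.85 to 2.14) at 20 to 50 kb in M0[CTR], and promoter pairs 2.07-fold as often as these. Over the lists this ratio was 1.94 to 2.14 at 20 to 50 kb, and 0.893 to 1.06 at 210 to 490 kb, where promoter pairs no longer stood apart. The chromosomal neighbourhood of promoters and the promoters themselves were separated only as far as 10 kb bins allow.

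**Figure D1:**
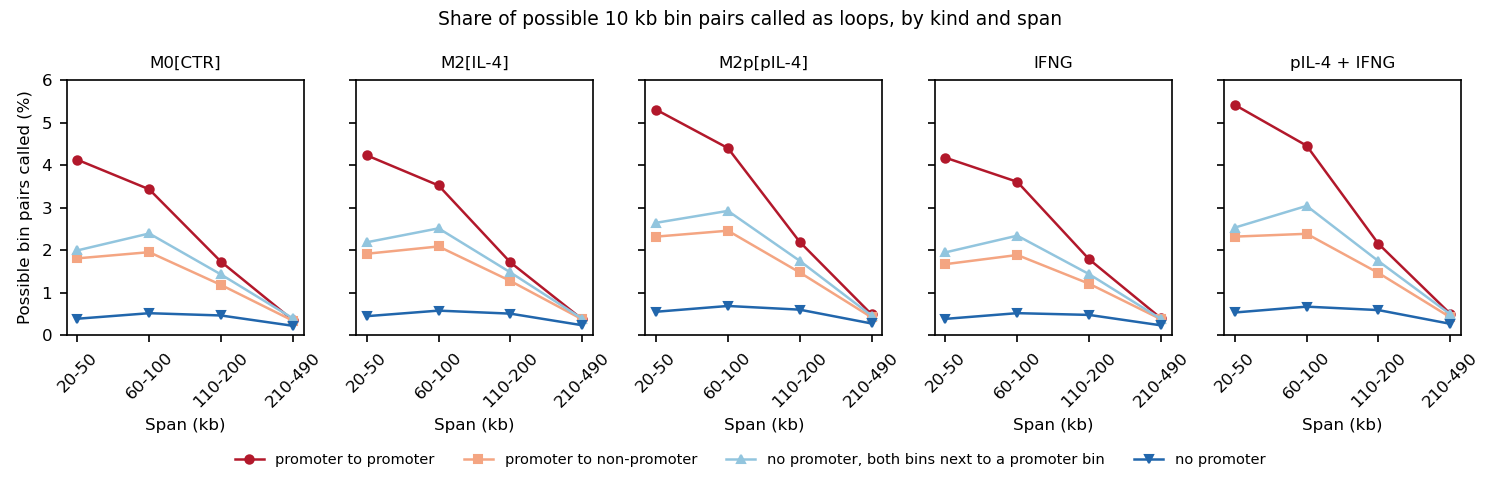
Share of possible 10 kb bin pairs called as loops (percent, vertical axis) by span class (kb, horizontal axis), 1 panel per list, with lines for pairs of promoter bins, pairs with 1 promoter bin, pairs without a promoter whose bins both touch a promoter bin, and all pairs without a promoter. In each of the 5 lists promoter pairs were called most often at 20 to 50 kb (4.12% in M0[CTR], 5.41% in pIL-4 + IFNG) and at 210 to 490 kb came near the lines of pairs with 1 promoter bin and of pairs beside promoter bins (ratios of 1.04 and 0.893 in M0[CTR]), while staying 1.62 to 1.89 times above all pairs without a promoter.

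At 20 to 50 kb, bins with several TSSs took part most. Among pairs 20 to 50 kb apart in M0[CTR], 6.06% (5.35 to 6.86) were called where either bin held more than 1 TSS. Where each held a single TSS the share was 3.28% (2.87 to 3.75) for genes on the same strand, 3.00% (2.32 to 3.88) for genes pointing towards each other and 4.12% (3.39 to 5.0) for genes pointing away. The 3 single-TSS classes overlapped in their intervals, whereas the pairs with several TSSs lay above all 3. In pIL-4 + IFNG the 4 shares were 7.76%, 4.22%, 4.99% and 5.14%, in the same order of classes, and again the first lay apart. At 60 to 100 kb in M0[CTR] they were 5.01%, 2.71%, 3.30% and 3.02%. At 210 to 490 kb in M0[CTR] they were 0.380%, 0.367%, 0.219% and 0.426%, and the first was not the highest. Nor was it in M2[IL-4] at that span (0.390%, with 0.401% for genes pointing away). It was the highest there in M2p[pIL-4] (0.666%), IFNG (0.475%) and pIL-4 + IFNG (0.581%). Promoter bins lying between the 2 ends made no visible difference. At 60 to 100 kb in M0[CTR], 3.57% of pairs were called with 0 TSS bins in between, 3.42% with 1 to 2 and 3.35% with 3 or more, with intervals that overlapped.

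In any list, 5406 of 18593 TSS bins (29.1%) and 6452 of 20807 genes (31.0%) took part in such a loop. Within 1 list 14.9 to 18.3% of TSS bins did, and 64.7 to 69.5% of these had a single partner. Bins with 5 or more partners numbered 52 to 93 per list. Chromosome 19 had the highest share of possible promoter pairs called in any list (5.80%) and chromosome 14 the lowest (1.92%), and chromosome 11 held 704 of the 5346 loops.

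The strongest loops called in all 5 lists were taken by their lowest strength. The loop from Aif1, an actin-binding protein of macrophages and microglia, to Atp6v1g2/Nfkbil1 spanned 60 kb and had 157, 147, 156, 170 and 169 contacts. Asgr1, a subunit of the asialoglycoprotein receptor, met Slc16a11, of a monocarboxylate transporter family, over 160 kb with 90, 105, 114, 126 and 130 contacts. The loop from 1600014C23Rik to Vegfa, the vascular growth factor gene, spanned 300 kb and had 75, 71, 82, 62 and 85 contacts. The Aif1 and Asgr1 loops had their highest contacts in both lists with IFNG, while the Vegfa loop was lowest in IFNG and highest in pIL-4 + IFNG. The Asgr1 loop was lowest in M0[CTR], and its ratio did not pass 1.5-fold in any of the 6 comparisons described below.

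The CTCF core was searched on both strands as an exact 14-base consensus in all bins, and the left bins of the Aif1 and Vegfa loops held it. So did the right bins of 3 loops described below, Vars to Ly6g6e/Ly6g6d, Gmpr2/Nedd8 to Cideb and Pld2 to 4930544D05Rik/Chrne, which were chosen for display after their matches were seen. The matches are shown here in capitals within 30 bases of GRCm38, read along the strand of the match, because their directions differ between left and right anchors. The Aif1 bin held one at chr17:35178679-35178708 on the plus strand, and the 1600014C23Rik bin one at chr17:45735625-45735654 on the plus strand. The Ly6g6e/Ly6g6d bin held one at chr17:35078103-35078132, the Cideb bin one at chr14:55758695-55758724 and the 4930544D05Rik/Chrne bin one at chr11:70612678-70612707, all 3 on the minus strand.
Aif1: tcaggtccCCAGCAGGGGGCAGcacgtacc
1600014C23Rik: ctttctggCCAGCAGAGGGCGCtgcccaag
Ly6g6e/Ly6g6d: cgcatggcCCAGCAGAGGGCACtgggctct
Cideb: ataactttCCAGTAGGTGGCGGcagtcagc
4930544D05Rik/Chrne: caggtccaCCAGTAGAGGGCGGtgagggag
Each of the 5 matches shown pointed into its loop, and a loop with such matches at both ends is called convergent. Over all loops, the core was in 12.4% of the 990 TSS bins of promoter to promoter loops called in all 5 lists, in 7.55% of the 5406 TSS bins of such loops in any list, in 3.04% of TSS bins outside them and in 2.53% of all autosomal bins. Bins of loops without promoters held it in 5.95% of cases.

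Few promoter to promoter loops could be read for direction. Of the 5346, 48 had the core at both ends on a single strand each, and 19 of these were convergent (39.6%, 27.0 to 53.7). Among all possible promoter bin pairs with readable ends the share was 103 of 461 (22.3%, 18.8 to 26.4). The loops called in all 5 lists had 8 convergent of 10, and those called in 1 list 4 of 21. In single lists 12 to 14 of 20 to 25 were convergent. Loops without promoters were convergent in 57.5 to 61.0% of readable cases per list, and loops with 1 promoter in 61.9 to 71.0%. An anchor without the exact core may still bind CTCF, so these counts describe the letters only.

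The TSS bin with the most partners in loops called in all 5 lists was that of Vars, valyl-tRNA synthetase, on chromosome 17 (chr17:35000001-35010000), in the class III part of the major histocompatibility complex. It had 6 such partners, all towards the Ly6g genes, which encode small surface proteins of the Ly6 family. They were the bins of Ddah2, Ly6g6c/Mpig6b, Ly6g6e/Ly6g6d, Ly6g6f/Abhd16a, Ly6g5c and Ly6g5b. Counting all its loops, Vars had 7, 7, 8, 7 and 9 partners. Its loop to Ly6g6e/Ly6g6d had 72, 75, 71, 75 and 83 contacts. The bins of Vwa7, Sapcd1 and Ly6g6c/Mpig6b in the same block also had 6 partners each.

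Away from that locus the bin of Cideb, a lipid droplet protein, on chromosome 14 had 5 partners in all 5 lists, among them Rec8, a meiotic cohesin subunit, and Tinf2, a telomere protein. Its loop to Gmpr2/Nedd8 had 75, 69, 68, 78 and 64 contacts. The bin of 4930544D05Rik/Chrne on chromosome 11, which holds a subunit gene of the muscle acetylcholine receptor, also had 5 partners in all 5 lists, among them Psmb6, a proteasome subunit, and Pld2, a phospholipase. The Pld2 loop had 112, 98, 125, 107 and 95 contacts. The partner genes of these 3 bins share a neighbourhood and not one function. Loops called in all 5 lists joined 990 TSS bins into 373 connected groups, 245 of them a single pair, 112 of 3 to 5 bins and 16 of 6 or more.

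The class III region held 2 of the largest groups side by side. From Vars to Ly6g5b, 9 bins over 110 kb with 12 genes were joined by 21 loops of all 5 lists. From Apom to Ddx39b, a second 9 bins over 110 kb with 12 genes were joined by 15. This second group held Aif1, Lst1 and the cytokine genes Tnf, Lta and Ltb. Across the whole 240 kb, 61 promoter to promoter loops were called in any list and 36 in all 5. Loops joining a bin of the first group to one of the second numbered 4 in any list and 0 in all 5. The Gpank1/Csnk2b bin between them met bins of both groups, in loops of 1 to 4 lists.

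**Figure D2:**
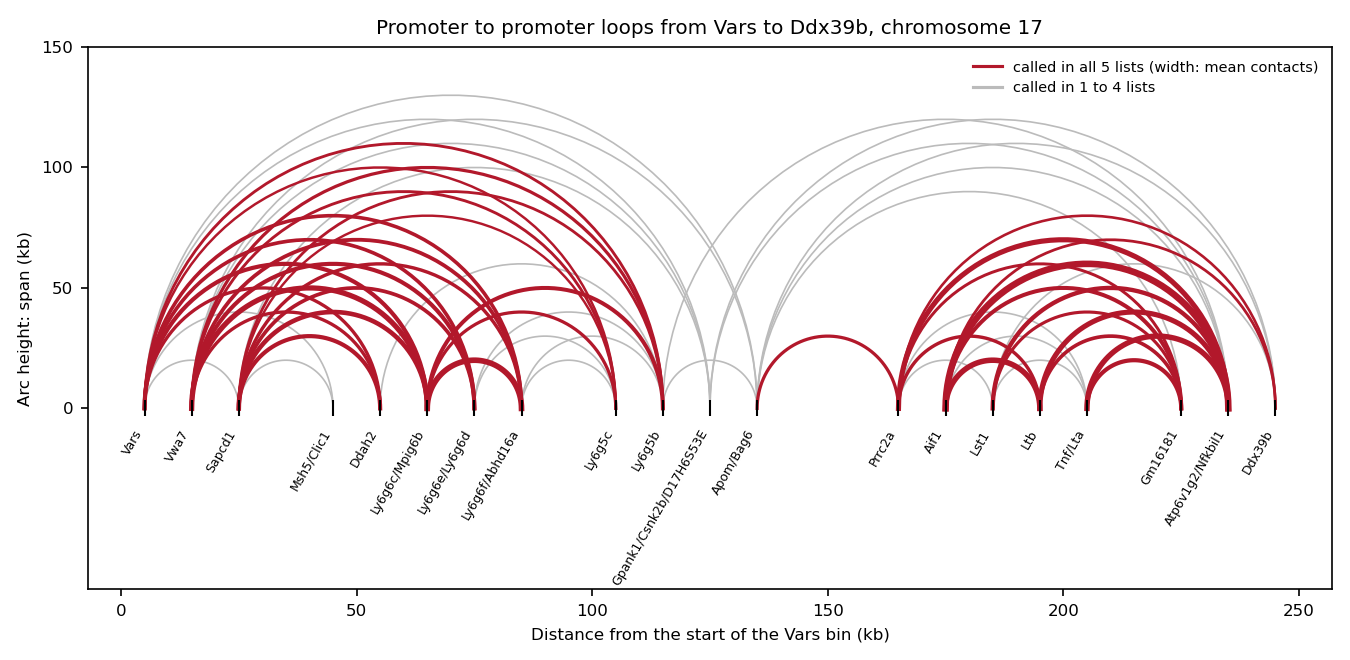
Promoter to promoter loops of the MHC class III region drawn as arcs between bin centres (horizontal axis, kb from the start of the Vars bin) with height equal to span (kb). Red arcs are the 36 loops called in all 5 lists, wider with more mean contacts, and grey arcs those called in 1 to 4 lists. The red arcs form 2 blocks, and no red arc joins one block to the other.

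Promoter to promoter loops were called in several lists a little more often than other loops. Of the 5346, 660 (12.3%) were called in the same bins in all 5 lists, against 10.3% of all autosomal loops of these spans, and 2548 (47.7%) in 1 list only, against 52.4%. Sharing rose with strength. In M0[CTR], 68.5% of the strongest 25% were called in all 5 lists and 10.6% of the weakest 25%. In pIL-4 + IFNG the values were 54.4% and 7.84%. The difference from all loops was thus read without a test, since these loops also held more contacts.

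When an anchor was allowed to shift by up to 25 kb (2 bins), most loops were found again. The loop found could be of any kind, with or without promoters. In the same bins 47.1 to 53.6% of the promoter to promoter loops were found. A loop within 2 bins was also common where a loop was not called (79.2% of such cases for the gene lists below). In M0[CTR] were found 91.6% (90.3 to 92.7) of the promoter to promoter loops of M2[IL-4], 88.5% (87.2 to 89.6) of those of M2p[pIL-4] and 91.0% (89.7 to 92.1) of those of IFNG. The same shares over all loops were 89.5%, 88.4% and 90.0%. Of the M2p[pIL-4] loops, 90.3% were found in M2[IL-4], and of the pIL-4 + IFNG loops, 91.6% in M2p[pIL-4] and 89.9% in IFNG. The corresponding shares over all loops were 89.6%, 91.4% and 89.1%. With all lists cut to the same length, 88.8 to 91.1% of promoter to promoter loops and 90.0 to 90.7% of all loops were found again. The promoter to promoter loops then had the higher share for M2[IL-4] and IFNG in M0[CTR] and the lower share in the remaining 4 comparisons.

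Patterns across the lists were near those of all loops. Both IFNG lists and no other called 123 of the 5346 (2.30%, against 2.16% of all loops). The 3 lists of cells given IL-4 and no other called 93 (1.74%, against 1.58%), and the 3 lists without IFNG and no other called 69 (1.29%, against 1.15%). A stricter reading asked that the remaining lists held no loop within 2 bins of both ends. By that reading 11 loops were called in both IFNG lists alone (0.206%, against 0.121% of all loops), and 3 in the 3 lists without IFNG alone (0.0561%, against 0.0366%).

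The 14 loops of that stricter reading were singled out after their values were seen. Among the 11, Rps19, a ribosomal protein gene, met Arhgef1 over 20 kb with 120 contacts in the IFNG list and 111 in the pIL-4 + IFNG list. The lowest counts called at that span in the other 3 lists were 41, 42 and 39. Samhd1, an antiviral dNTP hydrolase, met Rbl1, of the retinoblastoma family, with 53 and 47 contacts, and Gbp3 met Gbp2 with 36 and 28. The others were Safb2/Safb to 2410015M20Rik (89 and 93), Rbm28 to Hilpda/Fam71f2 (55 and 41), Trappc3l to Calhm5 (50 and 51), Necab2 to Taf1c (39 and 35), Ndufv1 to Rad9a (36 and 39), Gm21731 to Tcstv3 (37 and 31), Mitd1/Mrpl30 to Rev1 (25 and 31) and Cpt2 to Zyg11b (21 and 20). Of these genes, Gbp2 and Gbp3 were on the list of IFNG-induced genes. In the 3 lists without IFNG, Metap1d met Dlx2 with 44, 42 and 44 contacts, Vsx1 met Entpd6 with 37, 43 and 40, and Aunip met Mtfr1l with 63, 61 and 58. Gm21731 and Tcstv3 lie in a region of near-identical gene copies, where reads may be shared between copies.

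Where a loop was called in both lists of a comparison, its contacts could be set side by side. Contacts were scaled by the sums over all loops called in both lists, and each was tested with an exact two-sided binomial test, adjusted by Benjamini-Hochberg over all of them. No promoter to promoter loop called in both lists passed an adjusted p of 0.05 in any of the 6 comparisons. Of the promoter to promoter loops in the list named first, 47.1 to 53.6% were called in the same bins of the other and tested. For M2[IL-4] against M0[CTR], 995 of 2114 were left out. Loops gained or lost between lists were not tested, so this result does not show that contacts stayed the same.

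M2[IL-4] against M0[CTR] had 1119 shared promoter to promoter loops with a median log2 ratio of -0.00. Past 1.5-fold were 18 (1.61%), 8 higher and 10 lower, against 3.25% of all 22733 shared loops, and past the adjusted p were 0 of 1119 and 0 of 22733 (0%). At an unadjusted p under 0.05 there were 11 (0.983%, against 1.75% of all). M2p[pIL-4] against M0[CTR] had 1262, with 16 past 1.5-fold (1.27%, against 3.16% of 25235) and 0 past the adjusted p (0% of all). Past the unadjusted p were 18 (1.43%, against 1.60% of all). Both of these comparisons and the next share the M0[CTR] list. IFNG against M0[CTR] had 1133, with 14 past 1.5-fold (1.24%, against 3.09% of 22089) and 0 past the adjusted p (against 2 of all, 0.00905%). Past the unadjusted p were 18 (1.59%, against 1.78% of all).

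M2p[pIL-4] against M2[IL-4] had 1299 shared, with 20 past 1.5-fold (1.54%, against 3.15% of 26200), 0 past the adjusted p (0% of all) and 23 at the unadjusted p. pIL-4 + IFNG against M2p[pIL-4] had 1448, with 27 past 1.5-fold (1.86%, against 3.24% of 28621), 17 of them higher, and 0 past the adjusted p (0% of all). Past the unadjusted p were 32 (2.21%, against 1.80% of all). pIL-4 + IFNG against IFNG had 1296, with 23 past 1.5-fold (1.77%, against 3.15% of 25465) and 0 past the adjusted p (0% of all). Past the unadjusted p were 24 (1.85%, against 1.64% of all). Median log2 ratios lay between -0.03 and -0.00 in all 6.

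Promoter to promoter loops were thus past 1.5-fold less often than all loops, but they also held more contacts, which narrows the ratio's spread. Among loops with 100 or more contacts over both lists, 0.586 to 1.18% of promoter to promoter loops and 1.54 to 2.21% of the others were past 1.5-fold. From 60 to 99 contacts the shares were 1.57 to 2.73% and 3.56 to 4.23%, and below 60 they were 1.86 to 4.58% and 3.67 to 4.32%. The share of promoter to promoter loops was the lower one in all 6 comparisons from 60 contacts up, and in 4 of 6 below.

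The largest scaled ratio in each direction among loops with 60 or more contacts over both lists stood at an adjusted p of 1 in the binomial test in every comparison. Eif3g, a translation initiation factor subunit, and Mrpl4, a mitochondrial ribosomal protein, had 35 contacts in M2p[pIL-4] and 61 in M0[CTR], a log2 ratio of -0.84 (95% interval -1.49 to -0.22, unadjusted exact binomial p = 0.00680). Coq10a, of coenzyme Q biology, and Smarcc2, a BAF chromatin remodelling subunit, had 68 in pIL-4 + IFNG and 37 in IFNG (0.90, 0.30 to 1.52, unadjusted exact p = 0.00248). Lrfn3 and Prodh2 had 27 in pIL-4 + IFNG and 52 in M2p[pIL-4] (-0.92, -1.65 to -0.22). These intervals excluded 0 before any adjustment, in loops picked for their large ratios. The adjustment ran over 25235 to 28621 shared loops in these comparisons.

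Tatdn1/Ndufb9 and Sqle, the squalene epoxidase of sterol synthesis, had 43 contacts in M2p[pIL-4] and 23 in M2[IL-4] (0.86, 0.10 to 1.66). Azin1 and Atp6v1c1 had 27 in M2[IL-4] and 44 in M0[CTR] (-0.71, -1.46 to 0.02), and Cd200r1, an inhibitory receptor of myeloid cells, and Slc35a5/Atg3 had 48 and 30 (0.68, -0.01 to 1.38). In IFNG against M0[CTR], Nr6a1 and Wdr38 had 43 and 68 (-0.70) and Hoxc8/Hoxc6 and Smug1 had 42 and 24 (0.76). The remaining extremes were Apeh to Bsn, Cfap126 to Ppox/Usp21, and Lrrc24/C030006K11Rik to Zfp647, at log2 ratios of -0.74, 0.81 and -0.87 in the last 3 comparisons. The sizes were alike in all 6 comparisons, whichever treatment was compared.

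The bin of Irf1 (chr11:53770001-53780000, shared with Gm17334) was followed because its neighbours were the only loops past the adjusted p, and the bins described here were chosen after their values were seen. The promoter to promoter loop from Irf1 to Gm12216, 80 kb away (chr11:53850001-53860000), had 46 contacts in the M0[CTR] list (exact Poisson interval 33.7 to 61.4). It had 59 after IL-4 (M2[IL-4], 44.9 to 76.1) and 51 after washing and rest (M2p[pIL-4], 38.0 to 67.1). Neither IFNG list called it, and the lowest counts they called at 80 kb were 21 and 20. The loop from Il5, a type 2 cytokine gene, to the same Gm12216 bin, 130 kb away, had 51, 41 and 46 contacts and was likewise not called in either IFNG list. Both IFNG lists held 9 loops within 2 bins of the Irf1 to Gm12216 loop, the strongest of 66 and 60 contacts.

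The contacts of the Gm12216 bin differed between lists along this stretch. With the bin 20 kb before the Irf1 bin, which holds no TSS, it had 98, 114 and 104 contacts in the lists without IFNG, 42 with IFNG alone and 53 with IFNG after priming. IFNG stood 2.40-fold below M0[CTR] there (log2 ratio -1.27, -1.82 to -0.73, adjusted p = 0.0115 in the exact binomial test), and pIL-4 + IFNG against M2p[pIL-4] had a log2 ratio of -0.95 (-1.45 to -0.46) with an adjusted p of 1. With the bin 10 kb past Irf1 the Gm12216 bin was called in IFNG (61) and pIL-4 + IFNG (55) alone, and with the bin 20 kb past it in M2[IL-4] (52), IFNG (66) and pIL-4 + IFNG (60). The bin 30 kb past Irf1 was called with it in M0[CTR] (59), IFNG (58) and pIL-4 + IFNG (65). The called contacts upstream of Irf1 were thus fewer with IFNG in both backgrounds. Of the bins 10, 20 and 30 kb downstream, only the first was called in both IFNG lists and in no other.

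**Figure D3:**
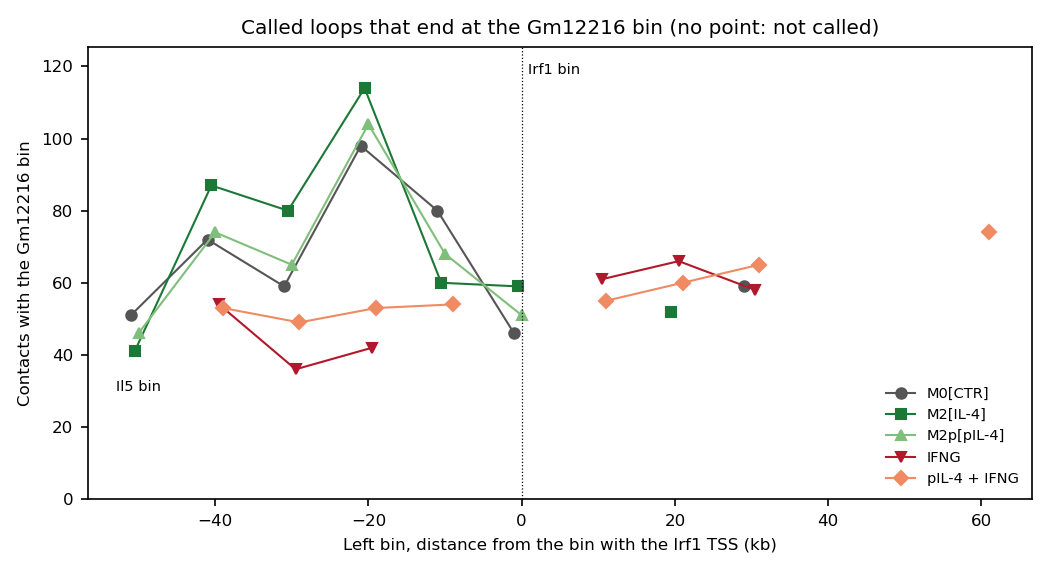
Contacts (vertical axis) between the Gm12216 bin and each 10 kb bin to its left, by distance from the Irf1 bin in kb (horizontal axis), with 1 marker and colour per list, lines joining neighbouring called bins, bins not called left out, and points moved slightly sideways so that lists do not hide each other. At -20 kb the 3 lists without IFNG had 98 to 114 contacts and the IFNG lists 42 and 53.

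The Gbp block on chromosome 3 (chr3:142490001-142630000) spans 130 kb from the Gbp5 bin to the Gbp2 bin and was also chosen after its values were seen. All called loops inside it, of any kind, numbered 4, 3, 3, 15 and 23, in lists of 44658, 48374, 57355, 45777 and 56271 loops. They summed to 140, 98, 103, 605 and 896 contacts. The 3 lists without IFNG were alike and both IFNG lists lay far above, though M2p[pIL-4] was the longest list of all. Promoter to promoter loops between Gbp genes numbered 2, 1, 1, 4 and 5, of 2070, 2114, 2680, 2165 and 2702 in the lists.

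The outer loop from Gbp5 to Gbp2 was called in every list, with 47, 45, 47, 33 and 31 contacts. Its counts were lower in both IFNG lists, within overlapping exact Poisson intervals (34.5 to 62.5 in M0[CTR], 22.7 to 46.3 in IFNG). The inner loops differed. Gbp3 to Gbp2 had 36 contacts in IFNG (25.2 to 49.8) and 28 in pIL-4 + IFNG (18.6 to 40.5), Gbp7 to Gbp2 had 34 and 38, and Gbp7 to Gbp3 had 50 in pIL-4 + IFNG. None of these 3 was called in the lists without IFNG. Gbp3 to Gbp2 spanned 60 kb, where the lowest counts called were 22, 22, 21, 23 and 20. Its strength was 0.667 in IFNG and 0.549 in pIL-4 + IFNG, below the median loop of that span. Gbp5 to Gbp3 was called in M0[CTR] (42), IFNG (35) and pIL-4 + IFNG (38). From 2 bins before Gbp3 to Gbp2, 0 loops of any kind were called in each list without IFNG, and 7 and 9 in the 2 lists with it. The Gbp genes are close relatives, and how reads that fit several of them were handled is not known for these lists.

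**Figure D4:**
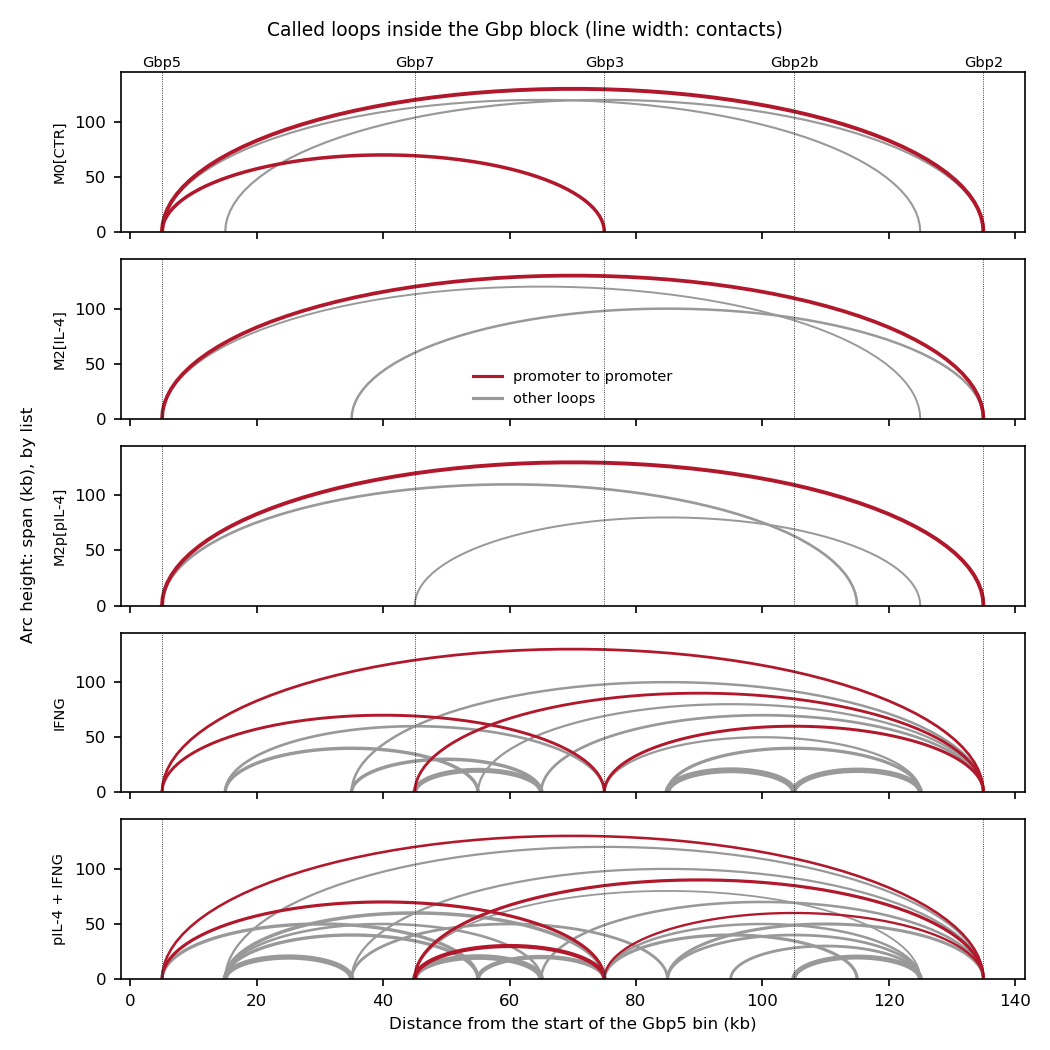
Loops called inside the Gbp block, 1 panel per list, drawn as arcs between bin centres (horizontal axis, kb from the start of the Gbp5 bin) with height equal to span (kb) and width growing with contacts. Promoter to promoter loops are in red and other loops in grey. The panels hold 4, 3, 3, 15 and 23 loops from top to bottom.

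Among 30 genes known to be induced by IFNG, 29 were matched on autosomes and 19 took part in 34 promoter to promoter loops, 6 of them in all 5 lists. Their loops numbered 16, 13, 14, 22 and 21, or 0.773%, 0.615%, 0.522%, 1.02% and 0.777% of the loops of each list. Both IFNG lists were the highest in number, with the Gbp genes giving part of the difference. By share, IFNG was the highest, while pIL-4 + IFNG was level with M0[CTR] and above M2p[pIL-4]. IFNG called 12 of these loops that M0[CTR] did not and missed 6 that it did. pIL-4 + IFNG called 12 that M2p[pIL-4] did not and missed 5. Over all promoter to promoter loops the same counts were 1032 and 937, and 1254 and 1232.

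Irgm1 and Irf7 had the most loops of this list, and the other loops named here and for the lists below were chosen after their values were seen. Irgm1 and Ifi47, both genes of immunity-related GTPases, met over 200 kb with 40, 31, 52, 41 and 35 contacts. Irf7, an interferon regulatory factor gene, met Deaf1/Tmem80 with 42, 45 and 50 contacts in the lists of the 3 groups given IL-4. Within 2 bins of it M0[CTR] had 9 loops with up to 73 contacts and IFNG 5 with up to 74. Of the antigen presentation genes of the list, a loop of Tap1/Psmb9 and one of Ciita were called in all 5 lists, and the other loops of these genes and of Psmb10 in 1 to 3. Tap1/Psmb9 to Tap2, subunits of the peptide transporter and the immunoproteasome, had 68, 68, 78, 74 and 68 contacts, and Nubp1 to Ciita, the class II transactivator gene, had 52, 52, 61, 56 and 77. Parp14 to Parp9/Dtx3l had 100, 78, 84, 95 and 80. Sdad1 to Cxcl10, a chemokine gene, was called in IFNG alone with 88 contacts. Nearby loops (within 2 bins) were called in M2p[pIL-4] and pIL-4 + IFNG with up to 45 and 54 contacts, and in neither M0[CTR] nor M2[IL-4].

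Among 30 IL-4-induced genes, 29 were matched and 12 took part in 21 loops. These numbered 6, 10, 12, 8 and 10, or 0.290%, 0.473%, 0.448%, 0.370% and 0.370% of the promoter to promoter loops of each list, a share lowest in M0[CTR] and highest in M2[IL-4]. M2[IL-4] called 8 that M0[CTR] did not and missed 4, where over all promoter to promoter loops it called 995 and missed 951. M2p[pIL-4] called 8 and missed 2, where over all it called 1418 and missed 808. Cish to Hemk1, an enzyme gene for methylation of release factors, had 150, 157, 160, 165 and 160 contacts over 40 kb, and exact Poisson intervals from 127 to 176 in M0[CTR] and from 141 to 192 in IFNG. Its level was alike in all lists. The lectin genes Mgl2 and Clec10a both met Asgr1. Asgr1 to Clec10a had 26 contacts in M0[CTR], 26 in IFNG and 23 in pIL-4 + IFNG. Asgr1 to Mgl2, not called in M0[CTR] or M2[IL-4], had 61, 57 and 81 contacts in the remaining lists, while loops within 2 bins had up to 65 and 64 contacts in the first 2.

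Other loops of this list were seen in IL-4 lists alone in the same bins but had neighbours elsewhere. Gm10073 to Cdh1, E-cadherin, had 94 contacts with IL-4 (M2[IL-4]) and 85 after rest (M2p[pIL-4]). Loops within 2 bins had up to 55 contacts in M0[CTR] and 100 in pIL-4 + IFNG, and none was called in IFNG. F7, the coagulation factor VII gene, met Pcid2/Cul4a in M2[IL-4] with 52 contacts, and neighbouring loops had up to 45 contacts in M0[CTR] and 58 and 51 in both washed groups, with none in IFNG. Nsmce1 to Il4ra, the IL-4 receptor alpha chain gene, was in all 5 lists with 71, 59, 83, 81 and 62 contacts.

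**Figure D5:**
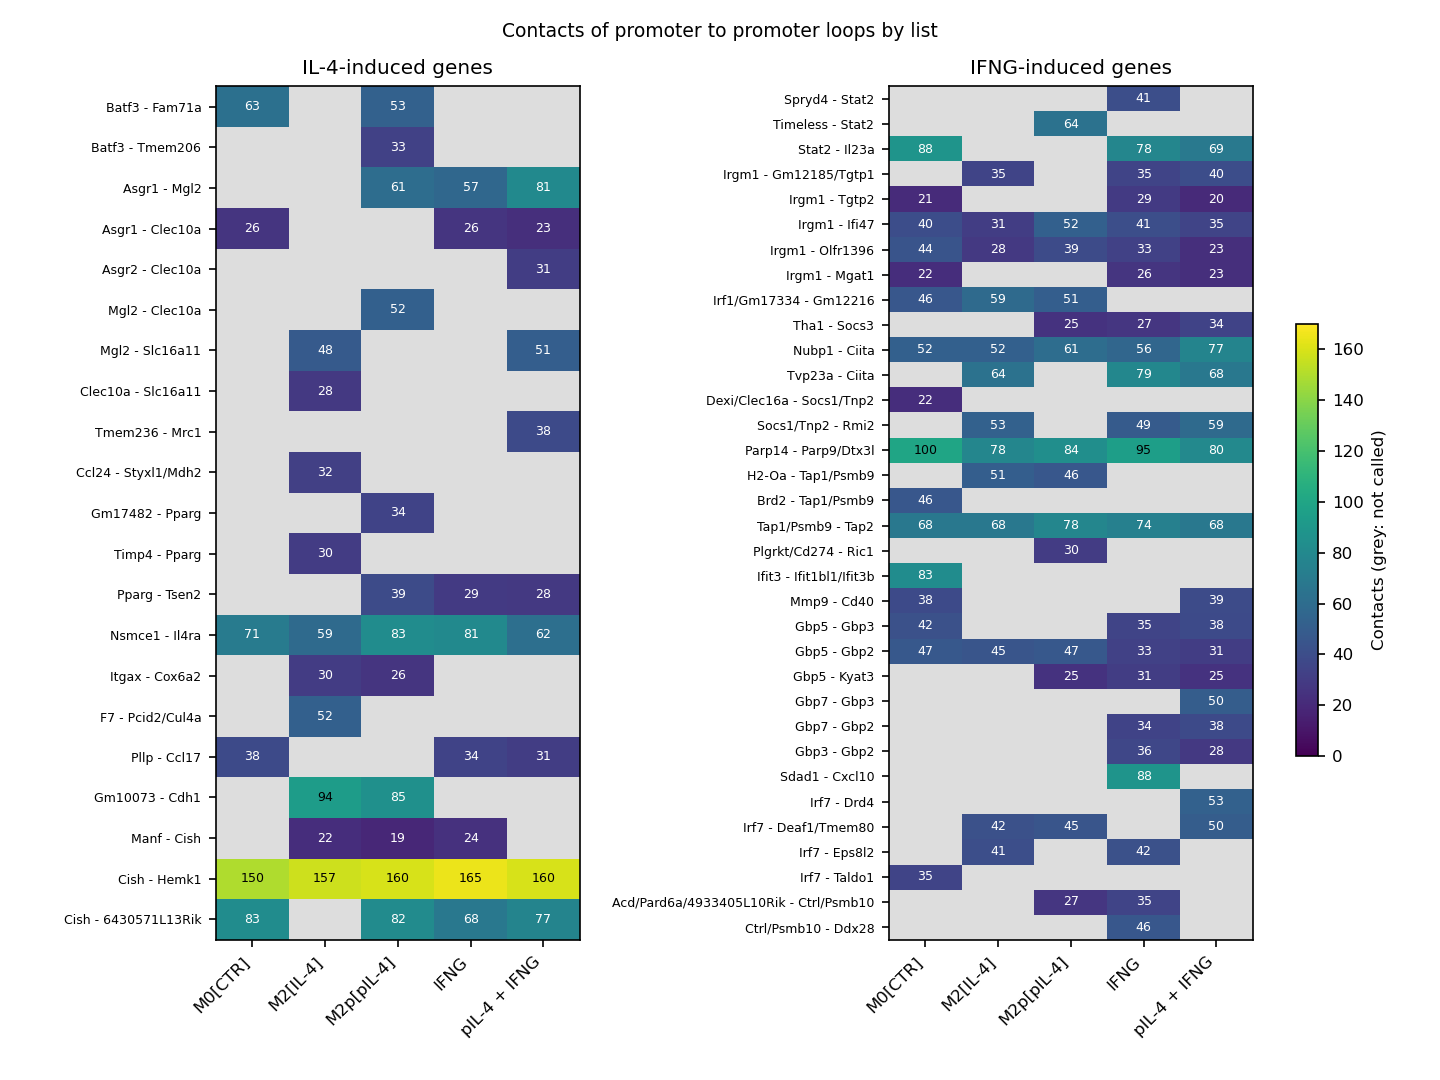
Contacts of each promoter to promoter loop of the IL-4-induced genes (left, 21 loops) and of the IFNG-induced genes (right, 34 loops), by list, with the number in each cell and grey where the loop was not called. The Cish to Hemk1 loop is the strongest, at 150 to 165 contacts in all 5 lists, and the rows from Gbp7 to Gbp2 are filled in the IFNG lists alone.

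Of 30 genes for receptors and signalling of IL-4 and IFNG, 28 were matched and 19 took part in 33 loops, numbering 15, 13, 20, 17 and 19, or 0.725%, 0.615%, 0.746%, 0.785% and 0.703% of each list's promoter to promoter loops. Stat6 to Nemp1/Nab2 had 107, 94, 106, 104 and 104 contacts, and Emg1/Phb2 to Ptpn6, the phosphatase SHP-1, had 159, 155, 161, 166 and 150. The interferon receptor genes Ifnar2 and Ifnar1 met with 41, 44, 37, 40 and 33 contacts. Ifnar2 to Ifngr2 was called in IFNG alone with 53, while neighbouring loops in the remaining lists had up to 56, 62, 38 and 46 contacts. Icam5 to Tyk2, a JAK family kinase gene, had 28, 44 and 34 contacts in the last 3 lists and was not called in the first 2. Among loops of the signalling genes called in all 5 lists, those of Stat6 and Ptpn6 varied little. Nsmce1 to Il4ra ranged more widely, from 59 contacts in M2[IL-4] (exact Poisson interval 44.9 to 76.1) to 83 in M2p[pIL-4] (66.1 to 102.9). Loops called in fewer lists mostly had neighbours in the others.

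Of 30 housekeeping genes, 28 were matched and 15 took part in 31 loops, numbering 13, 11, 19, 13 and 19, or 0.628%, 0.520%, 0.709%, 0.6005% and 0.703%. Tubb5, a beta tubulin gene, met Dhx16, an RNA helicase gene of splicing, with 118, 113, 105, 125 and 107 contacts. Polr2a, the largest subunit of RNA polymerase II, met Tmem95 in pIL-4 + IFNG alone with 56, with neighbours in all the other lists. Over the 4 gene lists there were 109 distinct loops. Of their 545 combinations of loop and list, 283 were not called, and 224 of these 283 (79.2%) had a loop within 2 bins at both ends in that list. Of the 262 that were called, 241 (91.98%) had another loop as near, so a neighbouring call was common whether or not the loop itself was called.

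Loop lists hold no expression, so cell type markers were looked up only for their promoters. Of 10 macrophage marker genes, 4 took part in 8 loops, and they numbered 2, 5, 5, 3 and 3 per list. That was 0.0966%, 0.237%, 0.187%, 0.139% and 0.111% of each list's promoter to promoter loops. Pycard to Itgam, the integrin CD11b, had 66, 73, 64, 75 and 77 contacts, and Mertk, an efferocytosis receptor gene, met Tmem87b with 71, 96, 91, 77 and 88. Adgre1, which encodes F4/80, met Gpr108/Trip10 in M2p[pIL-4] alone with 56, and E230025N22Rik to Cd14 had 91, 87 and 95 in the 3 lists with IL-4, both with neighbours in every list. Marker genes of neutrophils (2 of 6 with a loop), T cells (3 of 6), B cells (3 of 6), fibroblasts (1 of 6) and endothelial cells (1 of 6) had them too. The purity of the cells was not tested.

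Gene families differed widely in how many of their TSS bins took part. Against 29.1% of all TSS bins, replication-dependent histone genes had 23 of 31 (74.2%), cytosolic ribosomal protein genes 50 of 78 (64.1%), Ms4a genes 16 of 19 and Schlafen genes 8 of 8. Chemokine ligand and receptor genes had 25 of 51, keratin genes 16 of 52, zinc finger protein genes (Zfp) 104 of 376 and Hox genes 9 of 31. At the other end, olfactory receptor genes had 19 of 1084 (1.75%), vomeronasal receptor genes 2 of 324 and the clustered protocadherin genes 0 of 38. The first families are those of housekeeping or immune genes, and the last encode sensory receptors and neuronal adhesion proteins.

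Loops between 2 genes of one family made up a small part. Taking genes whose symbols share the letters before the first digit, 193 of the 5346 loops (3.61%) joined relatives, 62, 66, 75, 57 and 100 by list. These were 3.00%, 3.12%, 2.80%, 2.63% and 3.70% of the promoter to promoter loops of each list. At 20 to 50 kb in M0[CTR], 0 of 1763 possible pairs of olfactory or vomeronasal receptor bins were called, which allows a share of up to 0.217% (Wilson), 23 of 1388 other pairs of relatives (1.66%, 1.11 to 2.47), and 5.08% (4.69 to 5.50) of pairs of unrelated symbols. Promoters of relatives were thus called less often than other promoters at this span in M0[CTR]. In gene copies of high likeness reads can be lost in mapping, whose part in this was not tested.

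Histone genes had 8, 6, 12, 10 and 17 loops among themselves. The one with the most contacts summed over the lists, between bins of the Hist2 cluster 20 kb apart, had 66, 67, 55, 53 and 56 contacts, fewer than the median loop of that span in every list, with histone copies near enough in sequence that reads may be shared. Ms4a genes, of a family of membrane proteins on chromosome 19, had 1, 2, 5, 3 and 8, and Schlafen genes, an interferon-responsive family on chromosome 11, had 1, 0, 1, 2 and 4. The last list had the most in each of the 3 families, and also the most promoter to promoter loops and the most loops between relatives of the 5 lists. Ms4a4a to Ms4a6c had 42, 41 and 39 contacts in the 3 lists with IL-4, and Slfn2 to Slfn1, called in all but M2[IL-4] and IFNG, had 41, 40 and 48. Both had neighbours within 2 bins in every list.

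The chemokine genes Ccl9 and Ccl6 met with 76, 81, 84, 81 and 86 contacts, and the family had 5, 6, 8, 4 and 7 loops within itself. Keratin genes, silent in macrophages as a rule, had 5, 2, 7, 1 and 3, and Krt84 to Krt78 had 18, 20, 19 and 19 contacts over 420 kb in all lists but IFNG. The olfactory receptor genes Olfr90 and Olfr94 met with 23, 26, 26 and 38, likewise in all but IFNG. Within 2 bins of the Krt84 to Krt78 loop, IFNG held 5 loops with up to 21 contacts. Near Olfr90 to Olfr94 it held 1 loop with 32 contacts. Hoxa10/Hoxa11 to Hoxa13 was called in IFNG alone (76), with no neighbour in any list, and Zfp787 to Zfp444 in pIL-4 + IFNG alone (77). Ribosomal protein genes had 0 loops among themselves, with 4 possible pairs, and 50, 42, 41, 36 and 56 with other genes.

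The promoters of the genes taking part were rich in G and C, as were those of genes whose loops had a promoter at 1 end. The median GC content of the 300-base windows was 58.3% for the 1182 genes in loops of all 5 lists, 58% for the 6452 in any list, 58.3% for 4156 genes with other loops only, and 51% for 10199 genes without a loop. The median ratio of observed to expected CpG was 0.659, 0.668, 0.650 and 0.368. The GC box GGGCGG was in 55.5%, 54.5%, 52.5% and 33.3% of windows (43.7% of all 20807), and the TATA box TATAAA in 7.95%, 8.46%, 9.87% and 16.6% (12.7% of all). Motifs were read on both strands.

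Genes with a promoter at both ends of a loop thus differed from genes without a loop, and little from genes with a promoter at 1 end. A larger gap to the latter was in the ETS letters CCGGAAGT, found in 6.85% and 6.82% of the promoters of promoter to promoter loops, 4.76% of those with other loops only, 3.54% of those without and 4.80% of all. The GAS letters were in 6.35%, 7.10%, 6.95% and 9.01%, and the STAT6 letters in 4.65%, 5.46%, 6.33% and 7.10%. The CCAAT box was in 38.1%, 37.9%, 35.8% and 40.1%.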

How the data were processed

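Hi-C loops were taken from 5 deposited lists, 1 per group, in which the authors gave raw contact counts for pairs of 10 kb bins, with no normalization apparent. The methods describe alignment with Bowtie2 in HiC-Pro within nf-core/hic, and the submitters' processing notes also name mm10 (GRCm38), FastQC, Juicer and HOMER. The methods name HICCUPS, on 25 kb bins with an FDR threshold, for loop calling, but these lists hold 10 kb bin pairs and no FDR, so it is not clear that HICCUPS made them. How replicates were merged is not given in the sources used here. A loop missing from a list was therefore read as not called, not as absent.

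TSSs were the 5′ ends of protein-coding GENCODE genes on GRCm38. Possible bin pairs left out bins with over 50% unsequenced bases. Loops called in both lists were scaled by summed contacts and tested with a two-sided exact binomial test, adjusted by Benjamini-Hochberg over all autosomal loops of 20 to 490 kb. Shares carry 95% Wilson intervals and contacts exact Poisson intervals. The test was checked on simulated Poisson counts with seeded changes. No calling threshold was applied there, so the check does not show how the test behaves on loops called in both lists. Scripts ran in Python 3.11.15 with scipy 1.17.1 for the tests, pysam 0.24.0 for sequence, and pandas 2.3.3.

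The loops and gene lists were chosen with earlier results of these data known. Loops were named by fixed rules: the 4 strongest in all 5 lists (1 per 500 kb), the largest ratio per direction and comparison, the 3 bins with most partners, the strongest loop of the 2 genes with most loops per gene list, the highest summed contacts within each family, and loops of macrophage markers. Of the loops so named, 2 are not reported here. Other loops named from the gene lists, the Irf1 and Gbp loci and the loops without neighbours were chosen after their values were seen. Alternatives covered TSS definition, merging of touching loops, list length, span, matching distance, fold, contact minimum and scaling.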

Additional observations from a re-analysis of the deposited data

How the results depend on the processing

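Taking the TSS of any protein-coding transcript gave 3522, 3600, 4482, 3624 and 4467 promoter to promoter loops in the usual order of the lists, or 7.89%, 7.44%, 7.81%, 7.92% and 7.94% of the loops. Merging touching bin pairs gave 7.65%, 7.31%, 8.02%, 7.82% and 8.18%, and spans from 50 kb gave 4.04%, 3.82%, 4.12%, 4.14% and 4.18%. Cutting the lists to an equal length of 44658 loops gave 4.90% for M2p[pIL-4], 5.01% for pIL-4 + IFNG, and 89.4% for the loops of the latter matched in the former. M2[IL-4] had the lowest share under each of these settings. In the order of the comparisons, matching by the same bins gave 52.9%, 47.1%, 52.3%, 48.5%, 53.6% and 48.0%, and within 50 kb 96.5%, 94.8%, 96.2%, 95.6%, 96.7% and 95.6%. At 2-fold, 0 promoter to promoter loops called in both lists passed in each of the 6 comparisons. Against pairs without promoters beside TSS bins, an alternative chosen after seeing the data, promoter pairs of 20 to 50 kb were called 2.07-, 1.94-, 2.01-, 2.14- and 2.14-fold as often, in the order of the lists. Scaling by the median ratio and a minimum of 40 contacts moved no value beyond its limit. No paired analysis was possible because every group came as 1 list, and for the same reason no replicate could be left out. Calls depend on depth and on an unknown threshold, so a longer list may call a weak loop that a shorter one misses, and contacts of uncalled loops are not known. Anchors of 10 kb can hold several genes and enhancers, and the gene named need not be the one in contact.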
